A study of Mus musculus with 32 samples.

Results

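The genes described here are 9 of the 55385 listed in the RNA files, chosen by name with earlier results of these data known. They are the acetyl-lysine readers Brd2, Brd3 and Brdt of the BET family, and the transcription elongation factors Ccnt1, Ccnt2, Hexim1, Larp7, Supt5 and Ell2. All 9 were present in every file, and all 9 passed the filter on low counts in each comparison. RNA was measured in pools of mouse embryos obtained by fertilization in vitro, with eggs and sperm both from wild-type B6D2F1/J mice of 6 to 8 weeks. Zygotes, early 2-cell embryos and late 2-cell embryos had been kept in A-485, a catalytic inhibitor of the acetyltransferases CBP and p300, at 10 µM, or in the solvent DMSO. The A-485 window ran from 4 to 20 h after insemination (hpi), and the study places early 2-cell embryos at 20 hpi. Zygotes were thus collected before the window closed, after a shorter exposure. A second set of late 2-cell embryos had been kept in trichostatin A (TSA), an inhibitor of zinc-dependent histone deacetylases, at 50 nM from 8 to 28 hpi, or in DMSO. Each of these 8 groups held 2 libraries. ATAC-seq, which maps accessible DNA, was done on embryos of the A-485 set at the late 1-cell stage and at the early 2-cell stage. Embryos were washed at each change of medium, and late 2-cell embryos of the A-485 set were collected after the A-485 window had closed. No source used here says whether the 2 libraries of a group came from separate collections, so p-values below measure the spread between 2 libraries, which may be technical.

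BET proteins bind acetylated histone tails through their bromodomains and help to bring the elongation machinery to active genes. Brd2 and Brd3 are made in most tissues, whereas Brdt is known mainly from the testis, where it is needed to make sperm. RNA polymerase II often pauses shortly after it starts, and its release depends on P-TEFb, a kinase made of Cdk9 and a cyclin T, Ccnt1 or Ccnt2. Hexim1 inhibits P-TEFb inside a particle built on 7SK RNA, and Larp7 binds and stabilizes that RNA. Supt5 is the larger subunit of the pausing and elongation factor DSIF, and Ell2 is a subunit of the super elongation complex. In mouse embryos the zygotic genome is activated mainly at the 2-cell stage, when stored maternal mRNA is also being cleared.

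The Hexim1 and Brdt loci are shown first because early 2-cell DMSO embryos had an accessible site upstream of each that was not listed in A-485 embryos, and the Larp7 and Supt5 promoters because both genes were lower after either inhibitor. Sequences are from RefSeq GRCm38.p6, the build of the files, on the strand of the gene, with promoters cut to the part outside annotated exons and upstream sites to the bases around the summit. The Larp7 window reaches into Zgrf1, a gene that starts beside it. Capitals mark matches to the 6 motifs searched.
Hexim1 promoter, chr11:103116075-103116230: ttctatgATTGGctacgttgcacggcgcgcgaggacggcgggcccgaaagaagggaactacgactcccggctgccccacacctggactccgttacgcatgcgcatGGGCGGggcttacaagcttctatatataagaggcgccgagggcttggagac
Hexim1 upstream site, chr11:103115341-103115617: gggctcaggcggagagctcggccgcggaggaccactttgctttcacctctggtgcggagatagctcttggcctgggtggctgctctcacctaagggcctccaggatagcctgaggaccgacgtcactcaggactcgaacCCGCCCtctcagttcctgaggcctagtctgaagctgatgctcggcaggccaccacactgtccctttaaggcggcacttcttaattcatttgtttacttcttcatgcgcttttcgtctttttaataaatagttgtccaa
Brdt promoter, chr5:107330944-107331158: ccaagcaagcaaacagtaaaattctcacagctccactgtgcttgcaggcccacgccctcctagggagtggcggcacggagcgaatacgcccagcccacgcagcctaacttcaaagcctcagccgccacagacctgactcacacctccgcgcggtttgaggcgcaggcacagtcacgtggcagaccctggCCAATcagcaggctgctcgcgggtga
Brdt upstream site, chr5:107329761-107330060: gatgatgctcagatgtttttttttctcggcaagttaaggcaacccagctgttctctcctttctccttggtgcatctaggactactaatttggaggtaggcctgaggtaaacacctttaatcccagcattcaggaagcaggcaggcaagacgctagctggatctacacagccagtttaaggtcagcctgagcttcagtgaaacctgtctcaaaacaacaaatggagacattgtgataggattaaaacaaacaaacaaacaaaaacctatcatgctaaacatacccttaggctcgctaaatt
Larp7 promoter, chr3:127553350-127553488: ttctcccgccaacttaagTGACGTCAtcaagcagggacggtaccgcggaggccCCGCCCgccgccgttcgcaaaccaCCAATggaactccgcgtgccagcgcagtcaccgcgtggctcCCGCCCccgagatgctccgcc
Supt5 promoter, chr7:28338747-28338969: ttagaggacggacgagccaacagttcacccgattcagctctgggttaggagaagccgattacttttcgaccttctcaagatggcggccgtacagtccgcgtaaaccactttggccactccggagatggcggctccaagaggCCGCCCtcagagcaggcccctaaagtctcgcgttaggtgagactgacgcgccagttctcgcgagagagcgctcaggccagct
The motifs were searched on both strands, and none of them contains another: the TATA box TATAAA, the CCAAT box, the GC box GGGCGG, the cAMP response element TGACGTCA, the Nr5a element TCAAGGTCA and the element known for the factor Dux. Among all 32851 promoters of 300 bases the shares holding each were 13.6% for TATAAA, 37.4% for CCAAT, 35.7% for GGGCGG, 1.79% for TGACGTCA, 0.423% for TCAAGGTCA and 0.0335% for the Dux element. The 300-base Larp7 window held TGACGTCA at 2 places, of which 1 lies in the printed part, and the Ell2 window held it at 1 place. No member window matched TATAAA, TCAAGGTCA or the Dux element, which says only that these letters are not in these windows. The members' promoters were GC-rich, from 58.7% to 75.0% G or C against a median of 52.7% over all promoters.

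The libraries held between 13206163 and 32585987 expected counts, with the 2 late A-485 libraries the smallest. Mitochondrial genes took 19.5% and 20.7% of counts in the late A-485 libraries, against 12.3% and 10.5% in their DMSO libraries, and 4.34% to 5.00% in zygotes. All 6 oocyte genes were at 1 FPKM or more in each group, and the 6 2-cell genes summed to 411.5 to 478.5 FPKM in early 2-cell DMSO embryos against 12.8 to 16.7 in zygote DMSO embryos and 10.3 to 11.3 in early 2-cell A-485 embryos. Erythroid genes summed to 44.6 to 46.8 FPKM after TSA and to at most 4.71 in the other libraries, and their part in the TSA results was not tested.

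Levels are given as FPKM, fragments scaled to effective gene length and library size, which can be compared between genes, and differences as log2 fold changes from counts with their standard error (SE), tested by edgeR's quasi-likelihood test with Benjamini-Hochberg adjustment over all genes. A gene passes at an adjusted p under 0.05. Both are shares of the RNA in a library, so neither gives molecules per embryo, and in such pools fewer cells with a transcript and less transcript per cell cannot be told apart.

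In DMSO embryos the 9 genes followed different courses. Between the zygote and the early 2-cell stage 4 of 9 rose, of which Brd2, Brdt and Ell2 turn direction with mitochondrial scaling, and 4 of 9 fell, where 46.1% of all genes passed (22.7% higher and 23.4% lower). Between the early and the late 2-cell stage 7 of 9 rose and only Brdt fell, where 36.2% of all genes passed (20.6% higher and 15.6% lower). Brdt was the most abundant of the 9 in zygotes and early 2-cell embryos, and Brd2 in the late 2-cell DMSO groups.

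**Figure D1:**
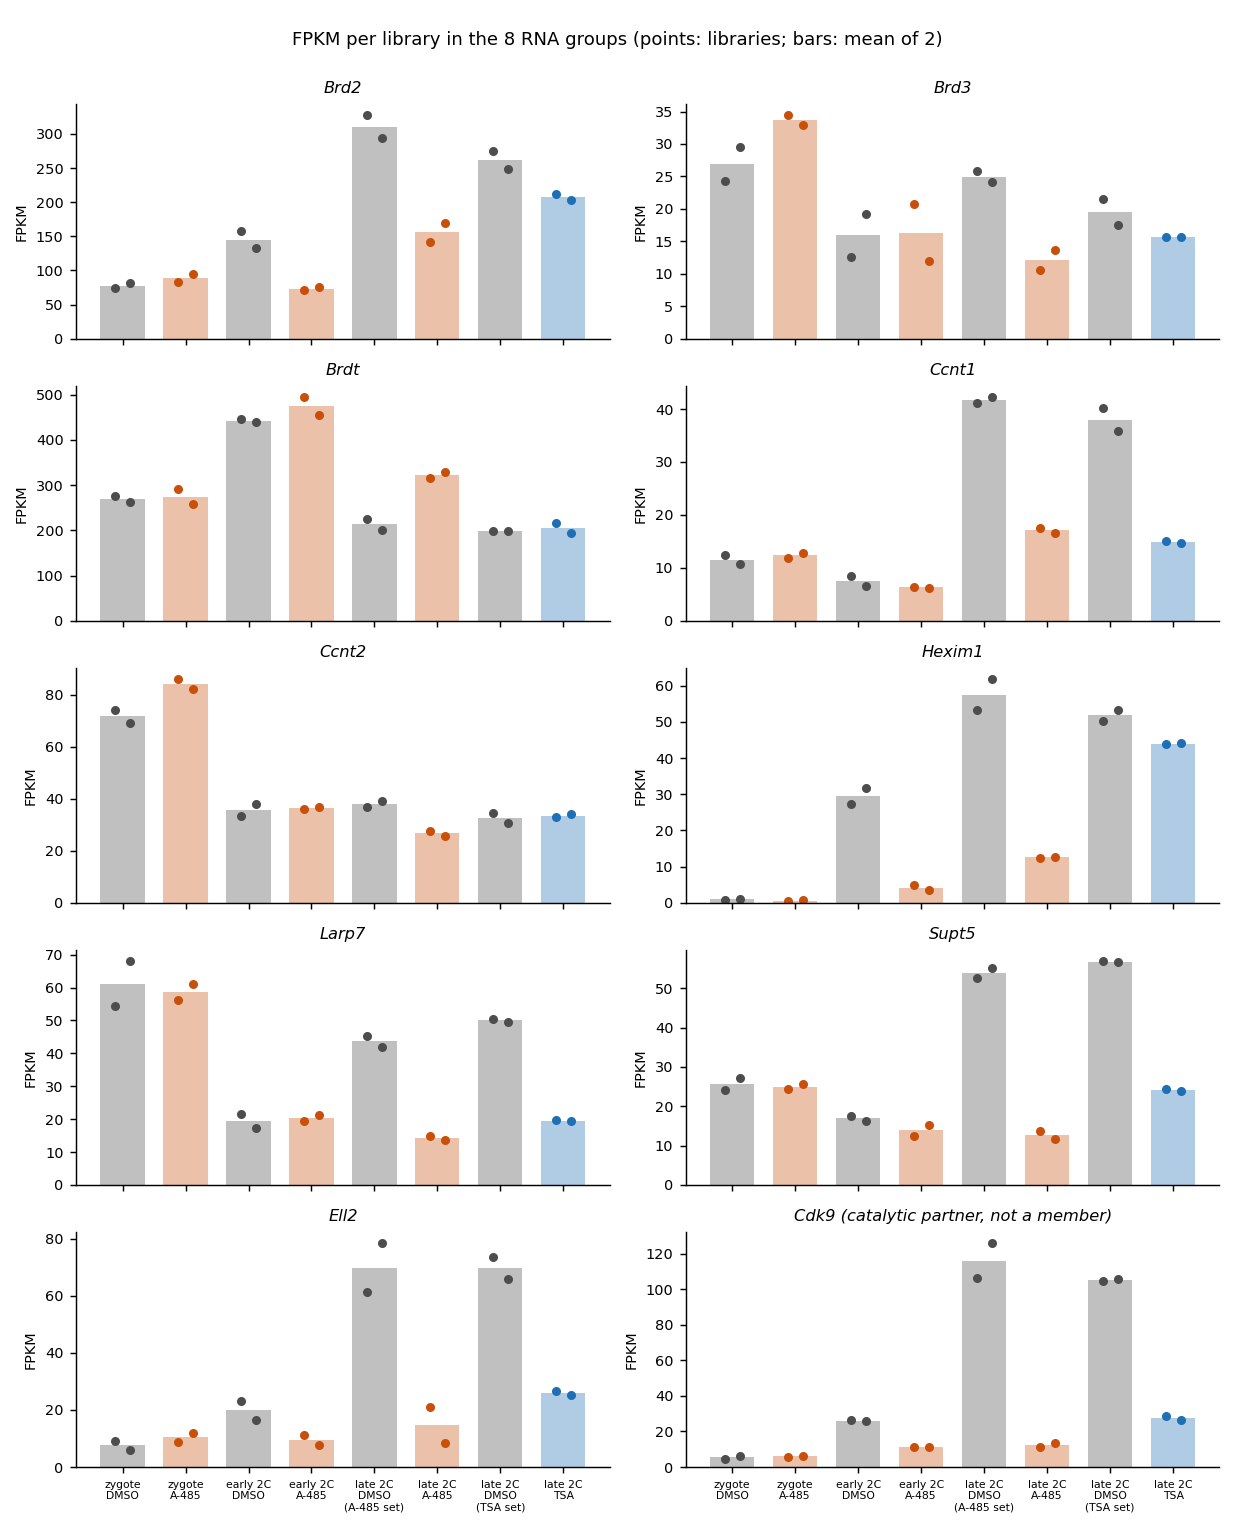
FPKM (vertical axis, linear from 0) of the 9 genes and of Cdk9 in the 8 RNA groups (horizontal axis). Points are the 2 libraries of a group, bars their mean, grey for DMSO, orange for A-485 and blue for TSA. Hexim1 goes from 0.995 FPKM in zygotes to 57.5 in late 2-cell embryos, Brdt is highest at the early 2-cell stage, and Supt5 is at 53.9 FPKM in late 2-cell DMSO embryos against 12.7 after A-485 and 24.1 after TSA.

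Hexim1, an inhibitor of P-TEFb, was nearly absent from zygotes. Its level was 0.85 and 1.14 FPKM in the 2 zygote DMSO libraries, 27.3 and 31.7 in early 2-cell embryos, and 53.3 and 61.8 in late 2-cell embryos. The rise from zygote to early 2-cell was 4.98 ± 0.17 on the log2 scale (SE, n = 2 per group, edgeR adjusted p = 1.1e-10), or 31.5-fold, and the next step added 0.96 ± 0.12 (edgeR adjusted p = 5.5e-05).

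Ell2, the elongation subunit, also rose at both steps with the usual (TMM) scaling. It was at 9.29 and 5.79 FPKM in zygotes, 23.3 and 16.4 in early and 61.3 and 78.4 in late 2-cell embryos, and no library of a stage overlapped the next. Of all genes, 33.7% had both early 2-cell libraries above both zygote libraries and 36.7% had them below. At the next step 32.6% had both late libraries above and 32% below. The steps were 1.08 ± 0.16 and 2.37 ± 0.12 on the log2 scale (edgeR adjusted p = 7.27e-05 and 7.05e-08).

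Brd2 approximately doubled at each step with the usual scaling. It was at 74.7 and 81.0 FPKM in zygotes, 157 and 133 in early and 328 and 294 in late 2-cell embryos. The log2 changes were 1.00 ± 0.10 and 1.04 ± 0.13 (edgeR adjusted p = 2.46e-06 and 3.55e-05).

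Brdt, the testis BET gene, was highest at the early 2-cell stage. Its level was 277 and 262 FPKM in zygotes, 446 and 439 in early 2-cell embryos and 225 and 202 in late 2-cell embryos. With the usual scaling it rose by 0.66 ± 0.07 and then fell by 1.01 ± 0.11 on the log2 scale (edgeR adjusted p = 3.19e-06 and 9.91e-06). Sperm markers were read beside it, and their part in the Brdt level was not tested. The 6 genes of the sperm list summed to 15.3 to 18.9 FPKM in zygote DMSO libraries and 5.59 to 7.08 in early 2-cell DMSO libraries, nearly all of it from Prm2, a protamine, at 16.9 ± 2.68 and 6.06 ± 0.658 FPKM (SD, n = 2). Of the other 5, 3 were listed at 0 in all these libraries, and Tnp1, a transition protein, was listed at 0 in zygotes and averaged 0.280 FPKM in early 2-cell embryos.

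The direction for Brd2, Ell2 and Brdt from zygote to early 2-cell depended on the scaling. Scaled to the 13 protein-coding mitochondrial genes, whose share of counts was higher in early 2-cell libraries, their log2 changes were -0.34, -0.25 and -0.67, while that of Hexim1 was 3.65. That scaling moved the median of all genes by -1.32, and measured from the median of all genes the 3 changes were 0.92, 1.00 and 0.58 with the usual scaling and 0.90, 1.00 and 0.57 with this one.

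Larp7, Supt5 and Brd3 fell and then rose. Larp7 was at 54.3 and 68.0 FPKM in zygotes, 21.7 and 17.3 in early and 45.4 and 42.0 in late 2-cell embryos, with log2 changes of -1.56 ± 0.14 and 1.15 ± 0.16 (edgeR adjusted p = 1.03e-06 and 0.00012). Supt5 was at 24.2 and 27.3 FPKM in zygotes, 17.6 and 16.3 in early and 52.7 and 55.1 in late 2-cell embryos, with changes of -0.64 ± 0.11 and 1.62 ± 0.12 (edgeR adjusted p = 0.000362 and 7.68e-07). Neither had overlapping libraries between neighbouring stages. That was common, since 36.7% of all genes lay wholly below at the first step and 32.6% wholly above at the second. Brd3 had the smallest steps of the 3, -0.44 ± 0.13 and 0.53 ± 0.16 (edgeR adjusted p = 0.0131 and 0.02), and both lost their call when early 2-cell DMSO replicate 1 was left out (-0.30 and 0.40, edgeR adjusted p = 0.0811 and 0.141), the first also without zygote replicate 2 (-0.38, edgeR adjusted p = 0.0824) and the second without late 2-cell replicate 1 (0.42, edgeR adjusted p = 0.0854).

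The cyclins parted. Ccnt1 was at 12.4 and 10.7 FPKM in zygotes and 8.51 and 6.66 in early 2-cell embryos, a log2 change of -0.23 ± 0.15 that did not pass (edgeR adjusted p = 0.218), and then at 41.1 and 42.2 in late 2-cell embryos, a rise of 2.57 ± 0.14 (edgeR adjusted p = 7.95e-08). Ccnt2 was at 74.3 and 69.2 FPKM in zygotes, 33.5 and 38.2 in early and 37.0 and 39.0 in late 2-cell embryos. In counts the first step of Ccnt2 was only -0.28 ± 0.08 (edgeR adjusted p = 0.0141) and the second -0.08 ± 0.11 (edgeR adjusted p = 0.645). The first call was lost without early 2-cell DMSO replicate 1 (-0.22, edgeR adjusted p = 0.0783) or zygote DMSO replicate 1 (-0.23, edgeR adjusted p = 0.109), and the second step passed as a fall (-0.27, edgeR adjusted p = 0.0221) with the late DMSO libraries of the TSA set. The gap between the 2 scales goes with the effective length that the authors' program assigned to Ccnt2, 3166 bases on average in zygotes and 4912 in early 2-cell embryos, since FPKM divides by it. Ccnt1 thus stood at 11.6 FPKM against 71.7 for Ccnt2 in zygotes, and at 41.7 against 38.0 in late 2-cell embryos.

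**Figure D2:**
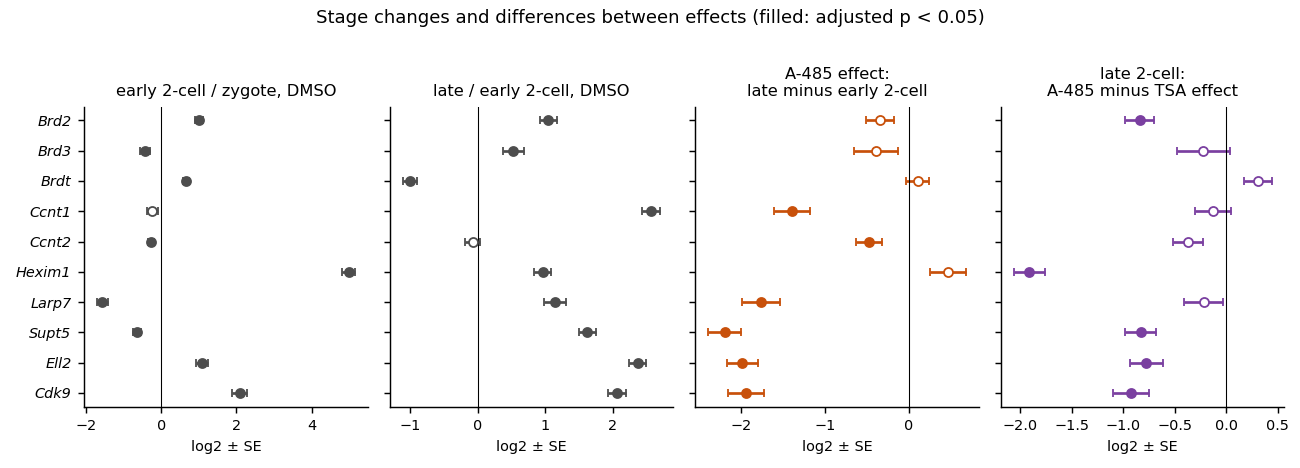
Log2 changes with SE (horizontal axes) of the 9 genes and Cdk9 between stages in DMSO embryos (first 2 panels), the A-485 effect at the late minus that at the early 2-cell stage (next panel) and the A-485 minus the TSA effect at the late 2-cell stage (last panel). Filled points passed. Hexim1 leads the first step with 4.98 and Ccnt1 the second with 2.57, and Hexim1 has the largest difference between inhibitors, -1.91.

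A-485 changed none of the 9 genes detectably in zygotes, which were collected before the A-485 window closed. By edgeR 0 of 9 passed, where 0.0986% of all genes passed (0.011% higher and 0.0876% lower), and 2 of 9 had an unadjusted p under 0.05, where 5.88% of all genes did; DESeq2 also called 0. Those 2 were Brd3, with a log2 difference of 0.24 ± 0.10 (edgeR adjusted p = 0.83), and Hexim1, at 0.47 and 0.68 FPKM with A-485 against 0.85 and 1.14 (log2 difference -0.79 ± 0.35, edgeR adjusted p = 0.83). The other 7 differences ran from -0.06 to 0.13, with SE from 0.07 to 0.15.

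In early 2-cell embryos, at the end of the A-485 window, Hexim1, Brd2 and Ell2 were lower and the other 6 genes did not pass. The 3 of 9 compare with 12% of all genes in either direction, 1.77% higher and 10.2% lower. Hexim1 was at 4.90 and 3.54 FPKM with A-485 against 27.3 and 31.7 with DMSO, a fall of 2.78 ± 0.16 on the log2 scale or 6.88-fold (edgeR adjusted p = 1.63e-07), which left it above every zygote library. Brd2 was at 70.8 and 76.2 FPKM against 157 and 133, a fall of 1.00 ± 0.10 (edgeR adjusted p = 2.48e-05), a range that overlapped the zygote libraries. Ell2 was at 11.1 and 7.75 FPKM against 23.3 and 16.4, a fall of 0.64 ± 0.14 in counts (edgeR adjusted p = 0.00826). On the FPKM scale its difference was -1.06 and did not pass (limma adjusted p = 0.0895). Its mean effective length, by which FPKM divides, was 2793 bases with A-485 against 2096 in DMSO.

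Among the 6 that did not pass in early 2-cell embryos, Larp7, Supt5, Brd3 and Ccnt2 had log2 differences of 0.03 ± 0.15, -0.17 ± 0.13, -0.23 ± 0.14 and 0.01 ± 0.08. Ccnt1 was at 6.42 and 6.26 FPKM against 8.51 and 6.66, a difference of -0.32 ± 0.17 (edgeR adjusted p = 0.289). Brdt was at 495 and 456 FPKM against 446 and 439, a difference of 0.11 ± 0.07 (edgeR adjusted p = 0.378).

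In late 2-cell embryos that had been exposed to A-485, 8 of 9 genes were lower and Brdt did not pass. Of all genes 37.4% passed, 20.4% lower and 17.0% higher. Ell2, Supt5 and Hexim1 had the largest differences, -2.71 ± 0.14, -2.45 ± 0.14 and -2.39 ± 0.14 on the log2 scale (edgeR adjusted p = 3.69e-08, 7.58e-08 and 7.43e-08). Larp7 and Ccnt1 followed with falls of 1.81 ± 0.17 and 1.79 ± 0.15 (edgeR adjusted p = 4.23e-06 and 1.42e-06), then Brd2 with 1.42 ± 0.12 (edgeR adjusted p = 1.83e-06).

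Supt5 was at 13.6 and 11.7 FPKM in the late A-485 libraries against 52.7 and 55.1 in DMSO, and the former values overlapped those of early 2-cell A-485 embryos, 12.5 and 15.3. Larp7 was at 14.9 and 13.7 FPKM against 45.4 and 42.0, below every early 2-cell library. Ccnt1 was at 17.5 and 16.6 FPKM against 41.1 and 42.2, which was still above all zygote and early 2-cell libraries. The late A-485 libraries thus stood at or below the early level for Supt5 and Larp7 and above it for Ccnt1.

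Hexim1 was at 12.5 and 12.6 FPKM against 53.3 and 61.8, and Brd2 at 141 and 170 against 328 and 294. Ell2 was at 21.04 and 8.47 FPKM against 61.3 and 78.4. The 2 late A-485 libraries held nearly the same Ell2 counts, 516 and 507, and their FPKM parted because the effective lengths given to the gene were 1857 and 4011 bases.

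Brd3 and Ccnt2 had the smallest falls, 0.71 ± 0.21 and 0.54 ± 0.12 (edgeR adjusted p = 0.0215 and 0.00468). Brd3 was at 10.5 and 13.6 FPKM against 25.9 and 24.1, values that also carry a mean effective length of 3703 against 2590 bases, while its counts gave a ratio of 1.63. Brd3 lost its call without A-485 replicate 1 (log2 difference -0.40, edgeR adjusted p = 0.11) or without DMSO replicate 1 (-0.56, edgeR adjusted p = 0.139). Ccnt2 was at 27.8 and 25.8 FPKM against 37.0 and 39.0, and did not pass on that scale (-0.51, limma adjusted p = 0.0529). Brdt was at 316 and 329 FPKM against 225 and 202, both treated libraries above both controls, as for 42.3% of all genes. Its log2 difference in counts was 0.13 ± 0.11 (edgeR adjusted p = 0.365), while on the FPKM scale it passed as higher (0.60, limma adjusted p = 0.0226). The FPKM values carry a mean effective length of 1402 bases after A-485 against 1689 in DMSO. The sign for Brdt depended on scaling, with 0.33 by library totals (edgeR adjusted p = 0.0214) and -0.84 against mitochondrial genes (edgeR adjusted p = 1.83e-05). Against the median of all genes, which stood at 0.28, Brdt was at -0.14. The other 8 members had negative values under these scalings, with Brd3 no longer passing by library totals (edgeR adjusted p = 0.0691), and the larger mitochondrial share of the late A-485 libraries moves with these results, and its part in them was not tested. Marker lists moved in the same libraries. In late A-485 against DMSO embryos the 6 oocyte genes summed to 1336 to 1346 FPKM against 696 to 737, the 6 2-cell genes to 56.5 to 68.1 against 308 to 313, and the 6 cumulus cell genes to 2.61 to 3.38 against 0.31 to 1.22, and their part in the members' results was not tested.

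**Figure D3:**
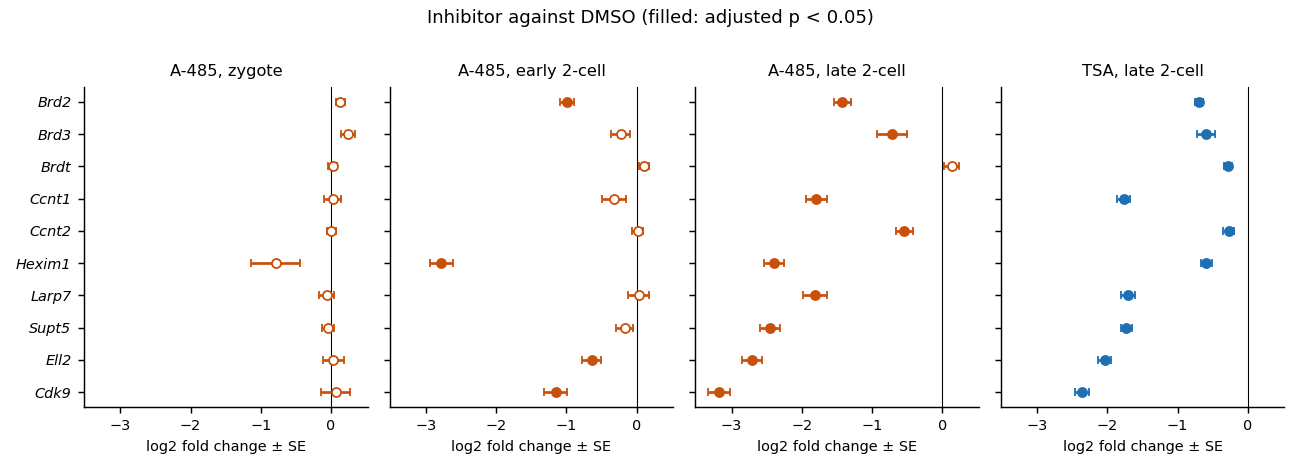
Log2 fold change with SE (horizontal axes) of inhibitor against DMSO for the 9 genes and Cdk9 (vertical axis) in the 4 treatment comparisons. Filled points passed. In zygotes no gene passed, in early 2-cell embryos Hexim1 stands apart at -2.78, and in late 2-cell embryos 8 genes were lower after A-485 and 9 after TSA, of which Brdt and Ccnt2 turn direction with library totals.

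The effect of A-485 differed between the early and the late 2-cell stage for 5 of 9 genes, where 20.0% of all genes passed the test of that difference, 9.9% in the lower and 10.1% in the higher direction. It was more negative late for Supt5 by 2.20 ± 0.20, for Ell2 by 1.98 ± 0.19, for Larp7 by 1.76 ± 0.23, for Ccnt1 by 1.39 ± 0.21 and for Ccnt2 by 0.47 ± 0.16 (edgeR adjusted p from 6.41e-09 for Supt5 to 0.0335 for Ccnt2). The call for Ccnt2 was lost by library totals (-0.34, edgeR adjusted p = 0.121) and without early A-485 replicate 1 (edgeR adjusted p = 0.0932) or early DMSO replicate 2 (edgeR adjusted p = 0.0602). Hexim1 and Brd2, which were already lower early, had differences of 0.47 ± 0.21 and -0.34 ± 0.16 that did not pass (edgeR adjusted p = 0.128 and 0.157). Hexim1 passed by library totals (0.60, edgeR adjusted p = 0.0406) and without early A-485 replicate 1 (0.71, edgeR adjusted p = 0.0304), and with mitochondrial scaling its value was -0.56. Brd2 passed with mitochondrial scaling (-1.40, edgeR adjusted p = 3.5e-10), with no filter (-0.39, edgeR adjusted p = 0.0438), in 1 fit of all libraries (-0.45, edgeR adjusted p = 0.0161), and without early DMSO replicate 1 (-0.71), late A-485 replicate 2 (-0.53) or late DMSO replicate 2 (-0.70). Brd3 passed with mitochondrial scaling (-1.43) and without late A-485 replicate 2 (-0.82). The median of all genes in this test was 0.44, and Hexim1 lay at 0.03 from it. Mitochondrial scaling moved that median by -1.03. Measured from the median, Brd2 and Brd3 were at -0.78 and -0.83 with the usual scaling, and at -0.81 and -0.85 with mitochondrial scaling. Whether Hexim1, Brd2 and Brd3 differ between the stages thus depended on the setting.

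TSA blocks the removal of acetyl groups, and A-485 blocks their addition by CBP and p300. The study reports that H3K27ac, a histone acetylation mark, was globally back at control level once A-485 had been washed off. With TSA too most members were lower in late 2-cell embryos. With the usual scaling 9 of 9 passed as lower, where 43.1% of all genes passed, 21.4% lower and 21.7% higher. Ell2 fell by 2.04 ± 0.09, Ccnt1 by 1.77 ± 0.10, Supt5 by 1.73 ± 0.08 and Larp7 by 1.71 ± 0.10 (edgeR adjusted p from 2.79e-08 to 2.1e-07). The remaining 5 had differences of less than 1 on the log2 scale. In the same libraries the 6 2-cell genes summed to 435 to 476 FPKM after TSA against 182 to 226, and the 6 oocyte genes to 681 to 703 against 528 to 543; their part was not tested.

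Ell2 was at 26.5 and 25.2 FPKM with TSA against 73.6 and 65.9 in the DMSO libraries of that set. Ccnt1 was at 15.1 and 14.7 FPKM against 40.1 and 35.8. Supt5 was at 24.3 and 23.9 FPKM against 56.8 and 56.6, and Larp7 at 19.8 and 19.4 against 50.4 and 49.6. No TSA library of these 4 genes overlapped a control library, and 22.6% of all genes had both TSA libraries below both controls.

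Brd2 fell by 0.69 ± 0.06 (211 and 204 FPKM against 275 and 249, edgeR adjusted p = 3.44e-06), Hexim1 by 0.59 ± 0.08 (44.0 and 44.1 against 50.3 and 53.4, edgeR adjusted p = 0.00011) and Brd3 by 0.59 ± 0.12 (15.7 in both against 21.5 and 17.5, edgeR adjusted p = 0.00259). Brdt and Ccnt2 had the smallest differences, -0.28 ± 0.06 and -0.27 ± 0.08 (edgeR adjusted p = 0.00353 and 0.0172), with overlapping FPKM. Ccnt2 lost its call without TSA replicate 2 (edgeR adjusted p = 0.0504) or DMSO replicate 1 (edgeR adjusted p = 0.116), and both genes lost theirs in 1 fit of all 16 libraries (-0.15 for Brdt and -0.14 for Ccnt2). Their direction turned with library totals, to 0.075 and 0.082, and Brd3 then lost its call (-0.24, edgeR adjusted p = 0.13), so that 6 of 9 passed. Library totals moved the median of all genes by 0.35, and measured from that median Brdt, Ccnt2 and Brd3 were at -0.41, -0.40 and -0.72 under both scalings. On the FPKM scale 5 of 9 passed as lower, Brd2, Ccnt1, Larp7, Supt5 and Ell2.

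A-485 and TSA each had their own DMSO libraries at the late 2-cell stage, and between those 2 control groups 0 of 9 genes passed by edgeR or DESeq2, where 2.36% of all genes did (1.68% higher and 0.688% lower), and 2 of 9 (Brd2 and Ell2) had an unadjusted p under 0.05 against 13.4% of all genes. Ell2 differed by 0.33 ± 0.10 and Brd2 by -0.24 ± 0.10 between the control groups, and leaving out 1 DMSO library of the A-485 set at a time let Ell2 pass in both cases (edgeR adjusted p = 0.0252 and 0.0495) and Brd2 in 1 (edgeR adjusted p = 0.00257). Doses and windows of the inhibitors differ, so the next values compare these 2 treatments as given.

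The A-485 effect was the stronger for 4 of 9 genes, where 17.3% of all genes passed, 12.7% in that direction and 4.59% in the other. Hexim1 differed most, with a difference between the effects of -1.91 ± 0.15 in the fit of all 8 libraries, which are scaled together (edgeR adjusted p = 6.92e-08). In the separate fits its values were -2.39 after A-485 and -0.59 after TSA. Brd2, Supt5 and Ell2 followed at -0.84 ± 0.14, -0.83 ± 0.15 and -0.78 ± 0.16 (edgeR adjusted p from 0.000281 to 0.00178). For Ccnt1, Larp7 and Brd3 the differences were -0.13 ± 0.17, -0.22 ± 0.19 and -0.22 ± 0.26, and for Ccnt2 and Brdt -0.37 ± 0.15 and 0.31 ± 0.13 (edgeR adjusted p = 0.101 and 0.136), none of which passed in this fit. Brdt passed by DESeq2 (0.44, DESeq2 adjusted p = 0.00642) and without late DMSO replicate 1 of the A-485 set (0.44, edgeR adjusted p = 0.0146). Scaled to mitochondrial genes, which moved the median of all genes by -0.67, 8 of 9 passed, and Brdt turned to -0.38. Of all 26554 genes tested 7051 passed with that scaling, against 4598 with the usual one.

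Cdk9, the kinase of P-TEFb, is not among the 9 but is the partner of both cyclins. It was at 4.72 and 6.30 FPKM in zygotes, 26.2 and 26.1 in early and 106 and 126 in late 2-cell embryos. With A-485 it was at 11.4 and 11.0 FPKM in early 2-cell embryos, a fall of 1.15 ± 0.16 (edgeR adjusted p = 0.000315), and at 11.5 and 13.4 in late 2-cell embryos, a fall of 3.17 ± 0.16 (edgeR adjusted p = 2.67e-08), which was larger than that of any of the 9. With TSA it was at 29.0 and 26.5 FPKM against 104 and 106, a fall of 2.36 ± 0.09 (edgeR adjusted p = 1.73e-08).

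The wider elongation machinery was read from 6 lists of 36 genes, Cdk9 included, which were also chosen with earlier results of these data known. With A-485 0 of 36 passed in zygotes (2 with an unadjusted p under 0.05, and 1 adjusted by DESeq2). In early 2-cell embryos 8 were lower and 1 higher, where 10.2% of all genes were lower and 1.77% higher, with a median log2 difference of -0.14 against 0.00 over all genes tested. Scaled to mitochondrial genes, 4 of the 36 passed in place of 9. In late 2-cell embryos 25 were lower and 2 higher after A-485, where 20.4% of all genes were lower and 17.0% higher, with a median of -1.24 against 0.28 over all genes. After TSA 25 were lower and 4 higher, where 21.4% of all genes were lower and 21.7% higher, with a median of -0.92 against 0.13. The same shares and medians over all genes stand behind the counts of single lists that follow. In DMSO embryos 19 of 34 tested rose and 8 fell from early to late 2-cell, where 20.6% of all genes rose and 15.6% fell. From zygote to early 2-cell 6 of 36 rose and 14 fell, where 22.7% of all genes rose and 23.4% fell.

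The NELF and DSIF list, whose proteins hold the polymerase in its pause together with Supt5, had the lowest median of the 6 lists in late 2-cell embryos after each inhibitor. After A-485 5 of 5 late 2-cell genes were lower with a median of -2.98, among them Nelfa at -0.90, Nelfb at -2.66 and Supt4a, the partner of Supt5, at -3.63. Mean counts in the late A-485 libraries were low, 26 for Nelfe, 27.5 for Nelfb, 34.5 for Nelfcd and 47.5 for Supt4a, against 604 for Nelfa. Nelfb was at 2.7 FPKM against 6.3 in DMSO, with mean effective lengths of 797 and 1741 bases. After TSA 4 of 5 were lower with a median of -1.81, with Supt4a at -1.97 and Nelfb at -0.68, and Nelfa was at 0.20 and did not pass. In early 2-cell embryos with A-485 0 of 5 passed and 2 had an unadjusted p under 0.05.

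The super elongation complex was divided. Of its 8 genes 4 were lower and 1 higher in late 2-cell embryos after A-485, with Aff1, its scaffold, at -1.99, Aff4, a related scaffold, at -1.11, Eaf1 at -2.52, Mllt1 at -2.47 and Mllt3 at 0.66. After TSA 3 were lower and 2 higher, with Aff1 at -1.18, Aff4 at -2.49, Eaf1 at -1.75, Ell3 at 1.01 and Eaf2 at 5.22, a gene at only 0.070 FPKM in the control. Mllt1, which reads acetylated histones, was at 0.04 after TSA and did not pass, and its 2 effects differed by -2.62, which passed. Ell, a relative of Ell2, did not pass after either inhibitor (-0.19 and -0.32).

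In the PAF1 complex, which travels with the polymerase, 3 of 6 genes were lower in early 2-cell embryos with A-485, among them Paf1 at -2.44 and Leo1 at -1.84. Late after A-485 4 of 6 were lower, with Paf1 at -3.12, Leo1 at -1.27 and Rtf1 at -0.60. After TSA 4 were lower and 1 higher. Of the 7 elongation chaperones and kinases of the polymerase tail 6 were lower after A-485 and 7 after TSA, with the chaperone Supt6 at -2.37 and -1.95 and the kinase Cdk12 at -1.39 and -1.25. Of the 6 TFIIS and elongin genes 4 were lower after each, with Eloa, a subunit of elongin, at -3.18 and -1.45, and Eloa was also lower in early 2-cell embryos with A-485, at -2.19. In the list of P-TEFb and the 7SK particle 2 of 4 were lower and 1 higher after A-485, and 3 lower and 1 higher after TSA. Late after A-485, Mepce averaged 12.4 FPKM against 41.5 in DMSO, and Rn7sk, the 7SK RNA, 86956 against 47746. Hexim2 was at 5.76 FPKM against 3.95, with mean effective lengths of 807 and 1156 bases. After TSA, Mepce averaged 25.6 FPKM against 35.1, Rn7sk 37406 against 32574 and Hexim2 10.4 against 4.485.

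Other genes with a bromodomain were counted beside the BET genes. Of 22, 18 were lower and 0 higher in late 2-cell embryos after A-485 (median -1.05, against 0.28 over all genes, of which 20.4% were lower) and 18 lower and 0 higher after TSA (median -1.15, against 0.13, with 21.4% lower). In early 2-cell embryos with A-485 5 of 22 were lower, where 10.2% of all genes were, among them Brpf1, a scaffold of an acetyltransferase complex, at -1.31. Brd7, Brd9 and Brd1, which sit in other chromatin complexes, were at -0.57, -1.46 and -1.02 late after A-485, whereas Brwd3, Phip and Zmynd11 did not pass (-0.11, -0.12 and -0.02).

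**Figure D4:**
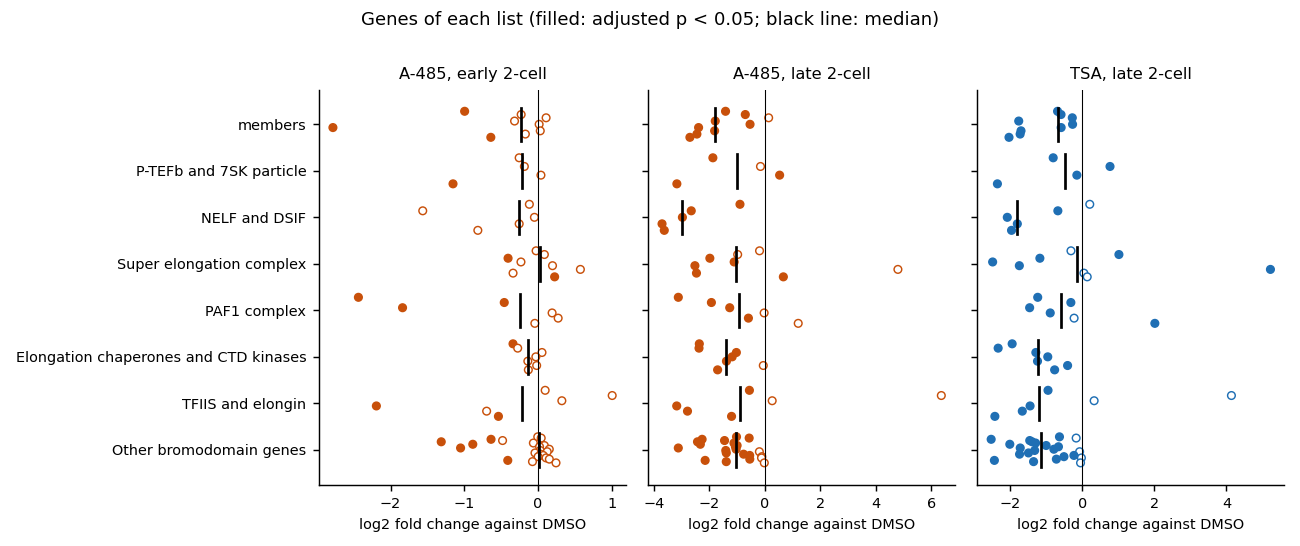
Log2 fold change against DMSO (horizontal axes, with a scale for each panel) of every tested gene in the 9 members, the 6 elongation lists and the other bromodomain genes (vertical axis). Filled points passed and black lines are medians. The NELF and DSIF median is at -2.98 after A-485 and -1.81 after TSA in late 2-cell embryos.

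ATAC-seq peaks came as 1 list for each group over both replicates, so no difference between them could be tested. Peaks within 1 kb of an annotated start site were listed at 7 of 9 members in late 1-cell DMSO embryos, 8 of 9 in late 1-cell A-485 embryos and 9 of 9 in early 2-cell embryos of both kinds. Over all protein-coding genes the shares were 26.2%, 24.7%, 31.8% and 41.0%, and over those at 1 FPKM or more in DMSO embryos of the stage 44.3%, 43.3%, 54.7% and 66.1%. The member without a peak in both late 1-cell lists was Brd3, and Ccnt1 had none in the DMSO list.

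Promoter peaks of genes that had fallen in RNA were still listed with A-485. The Hexim1 promoter peak had a fold enrichment of 5.58 in early 2-cell DMSO and 5.67 in A-485 embryos, and that of Ell2 9.23 and 11.7. The peak nearest to Brd2 start sites was at 5.20 and 5.41. Its summit lay at 903 bases from the nearest start site in DMSO and at -885 in A-485 embryos. No peak was listed within 1 kb of the outermost Brd2 start, at position 34122634. The Brdt peak was the highest, at 10.3 and 16.6. Cdk9 had a peak within 1 kb only in the early 2-cell A-485 list, at 5.42.

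The 2 upstream sites printed above were listed in early 2-cell DMSO embryos alone, and the reverse was listed at other members. Brd3 had a peak with its summit at -505 bases from the nearest start site and a fold enrichment of 3.48, and Supt5 one at -1057 bases and 4.76, both in early 2-cell A-485 embryos alone. The upstream site of Hexim1 spanned chr11:103115248-103115617, with its summit at -740 bases from the nearest start site and a fold enrichment of 6.78, above that of the promoter itself. The upstream site of Brdt spanned chr5:107329739-107330451, with its summit at -1248 bases from the start site and an enrichment of 6.25. Hexim1 RNA was lower in the same stage with A-485 and Brdt RNA did not pass. Both sites lie outside annotated genes.

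Away from start sites, 37 peaks of early 2-cell DMSO embryos lay within 50 kb of the 9 genes and more than 1 kb from any start site, and 36 of them, 97.3%, had no overlapping A-485 peak. Over all such peaks in the genome the share was 94.6%, so the members' share was near the background. The late 1-cell DMSO list held 4 such peaks, and 4 of 4 had an A-485 peak, against 76.9% without one in the genome. Ell2 and Ccnt2, with 0 and 1 such peaks in early 2-cell DMSO embryos, had the fewest.

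**Figure D5:**
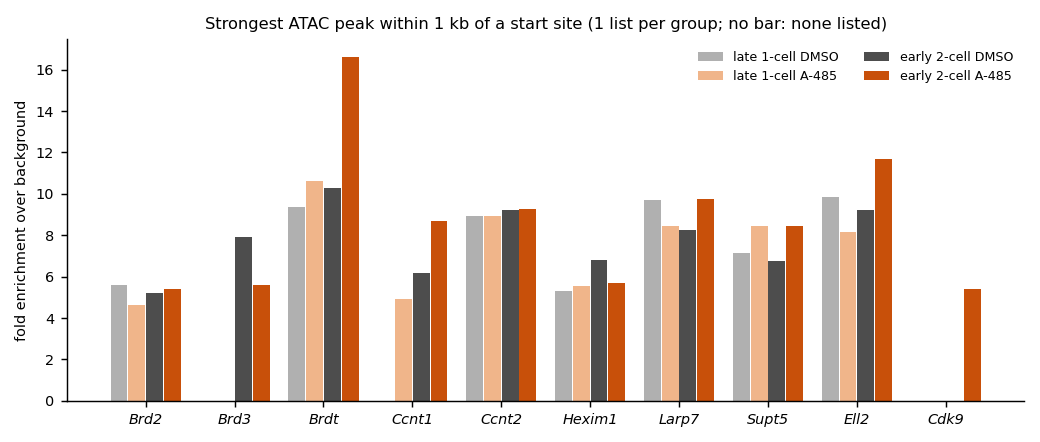
Fold enrichment (vertical axis, from 0) of the strongest ATAC-seq peak within 1 kb of a start site of each gene, in 4 lists with 1 list per group and so no error. A missing bar means that none was listed, as for Cdk9 outside the early 2-cell A-485 list. Brdt in early 2-cell A-485 embryos has the highest bar, at 16.6.

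Over the 8 group means of log2(FPKM + 0.1), the protein-coding genes with the pattern most like each member were found among 8795 genes with a span of at least 1. For Hexim1 a span of 6.42 set it apart from the other members, at 1.26 to 3.19. Nol9 was most like Supt5 (Pearson r = 0.999), Cdk2ap1 most like Ell2 (0.998), Ttc1 most like Larp7 (0.995), Cggbp1 most like Brd2 (0.993), Dohh most like Ccnt1 (0.991), Picalm most like Brdt (0.988) and Daxx most like Brd3 (0.977). The next in order were Ctsa for Ell2 (0.998), Fam98a for Larp7 (0.990), Supt3 for Ccnt2 (0.988), Klhdc2 for Brdt (0.984) and Il17rd for Brd3 (0.974). These are descriptions over 8 points that share their libraries, and among so many genes high values are common.

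The authors' program assigned the reads of the 9 genes almost without ambiguity, with a posterior SD of at most 1.11 counts in any library, for Larp7. The lowest count of any was 50, for Hexim1 in a zygote A-485 library. Some overlap genes on the other strand: H2-DMa at Brd2, 9330020H09Rik at Ccnt1, 1700037F03Rik at Ell2, microRNA genes at Larp7, and predicted genes at Brdt and Supt5. The library kit keeps strand, but the strand setting used for counting is not given in the sources used here, so reads of such pairs may not be fully separated. Hexim1 and Ccnt2 overlap no other gene.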

How the data were processed

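Total RNA of 16 libraries of pooled embryos, 2 for each of 8 groups named in the labels, was sequenced by the authors with a stranded kit, trimmed with Trimmomatic 0.39, mapped to GRCm38 with STAR 2.7.8a and quantified with RSEM 1.3.1. The deposited tables held expected counts, FPKM and a score of counting ambiguity, the posterior SD of the count, for 55385 genes, 55144 of which matched GENCODE M21. The authors' ATAC-seq peak lists, 1 per group over both replicates, gave a fold enrichment and a −log10 q for each peak. Expected counts were rounded and tested here with edgeR 4.0.16 (R 4.3.3), by TMM scaling and the quasi-likelihood F test, over genes with at least 10 counts summed, with Benjamini-Hochberg adjustment; the study itself used DESeq2. The script was tested on simulated data, where at the size of the early 2-cell comparison (20872 genes) 56 of 100 genes changed 2-fold and 92 of 100 changed 4-fold were called and 6.92% of calls were false. Alternatives were DESeq2 1.42.0, library totals, mitochondrial scaling, no filter, 1 fit of all 16 libraries, a replicate block, other control libraries, leaving out each library, and, added after seeing the data, limma on log2(FPKM + 0.1). Replicates of a group differed by more than sampling noise (chi-square per degree of freedom from 9.44 to 19.6). Members were described in every comparison, list genes were named as examples and the 2 genes most alike by Pearson r were found among genes at 5 FPKM or more, some of which are not named; the members and lists were chosen with earlier results of these data known. A gene of the lists is not reported here.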

Additional observations from a re-analysis of the deposited data

Results flagged for a closer look

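The effect of A-485 differed between the early and the late 2-cell stage for 5 of the 9 genes, by edgeR's test of that difference itself, which 20.0% of all genes passed. The late effect minus the early effect was -2.20 on the log2 scale for Supt5, -1.98 for Ell2, -1.76 for Larp7, -1.39 for Ccnt1 and -0.47 for Ccnt2, each more negative at the late stage. The call for Ccnt2 was lost by library totals (edgeR adjusted p = 0.121) and without early A-485 replicate 1 (edgeR adjusted p = 0.0932) or early DMSO replicate 2 (edgeR adjusted p = 0.0602).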

How the results depend on the processing

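Of 566 results for single members under other settings, 532 stayed on their side of the threshold, 11 lost the threshold, 14 gained it and 9 that passed in either fit turned direction. Of the 532, 11 that passed in neither fit had the other sign, as did 21 of 375 when 1 library was left out. Scaling to mitochondrial genes turned Brdt in late A-485 embryos to -0.84 and in the late minus early test to -0.93, and Brd2, Brdt and Ell2 from zygote to early 2-cell to -0.34, -0.67 and -0.25. Brdt and Ccnt2 after TSA turned to 0.075 and 0.082 with library totals, and to 0.048 and 0.041 by limma on FPKM, where 5 members passed in place of 9. Mitochondrial scaling let 8 members pass in the late minus early test and 8 in the A-485 minus TSA test. With it 7405 of 25141 genes passed in the former, against 5021 with the usual scaling. In the latter 7051 of 26554 passed, against 4598. It moved the median of all genes by -1.03 and -0.67. The cause was not tested.

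Leaving out 1 library gave 0 to 0 members passing in zygotes, 3 to 3 in early A-485, 7 to 8 in late A-485, 8 to 9 in TSA, 6 to 8 and 7 to 8 between stages, 4 to 7 in the late minus early test, 4 to 5 between the inhibitors and 0 to 2 between the late controls; the lone sample of a group was assumed to vary like the others. Same-numbered libraries deviated together with r from -0.0283 to 0.0385 across genes, which cannot exclude a shared collection. With the replicate block 0, 3, 8 and 9 members passed in the 4 treatment comparisons, 8 and 8 between stages, and 5, 4 and 0 in the late minus early, inhibitor and control tests. Promoter peaks within 2.5 kb or with −log10 q of at least 5 gave the same member counts, and with equal numbers of strongest peaks 8 members kept one in early 2-cell DMSO embryos. With 2 libraries per group, small changes of members at low counts, such as Hexim1 in zygotes, were not detectable.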
